A study of Mus musculus with 16 samples.

Results

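The thyroid lies in neck tissue that holds white and brown fat, and 10 genes of fat cells were followed through RNA-Seq libraries of thyroid glands: *Adipoq*, *Lep*, *Plin1*, *Cidec*, *Fabp4*, *Pparg*, *Ppargc1a*, *Ucp1*, *Cidea* and *Elovl3*. The genes were chosen by name as rows of the count table, 10 of its 25611 rows, with earlier results of these data known. All 10 passed the filter on low counts that left 16630 genes for testing, and all 10 had counts in each of the 16 libraries, from 31 counts of *Elovl3* to 299425 counts of *Fabp4*.

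The study compared thyroid glands of WT mice and of mice without functional *Glis3*, a gene for a zinc finger transcription factor, in thyroid follicular cells. *Glis3*-Pax8Cre mice carry the alleles B6;129-Glis3<tm2Amj> and Pax8<tm1.1(cre)Mbu>, so that Cre made from the *Pax8* locus removes exon 5 of *Glis3*. *Pax8* is active in follicular cells and is not a gene of fat cells. The labels give C57BL/6 as the strain and 1 month as the age of all mice, and the methods give 4 weeks and 6 days on the diet. The study states that the glands came from female mice. After weaning at 3 weeks of age the mice received either a normal diet (ND, NIH-31) or a low iodine diet (LID, TD.95125). This gave 4 groups, each of 4 mice: *Glis3*-Pax8Cre(LID), *Glis3*-Pax8Cre(ND), WT(LID) and WT(ND). The labels do not describe the WT mice further, and nothing says how much tissue around the gland was kept in dissection.

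White fat cells store triglyceride in 1 large droplet and secrete hormones such as adiponectin and leptin, whereas brown fat cells hold many small droplets and mitochondria in which uncoupling protein 1 turns fuel into heat. Brown fat lies in the neck and between the shoulders of the mouse, and its heat production is driven by noradrenaline from sympathetic nerves and by thyroid hormone. PPARγ, the product of *Pparg*, directs the formation of both kinds of fat cell.

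Levels are given as CPM, counts per 1000000 of the library size scaled by TMM, and errors of group means are SD over the 4 mice. The libraries held 13892352 to 461077969 counted read pairs, so that a count of 0 would allow at most 0.00651 to 0.216 CPM, an error of counting only. *Tg*, which encodes thyroglobulin, took 7.87% to 29.3% of a library, and the summed level of 6 follicular cell markers was between 97472 and 329098 CPM, with all 6 present in each library. Counts over the whole of *Glis3* do not separate exon 5, so the deletion was not measured here. The libraries also held RNA of neighbouring tissues. The sum of 4 parathyroid markers ranged from 366 to 12570.4 CPM, that of 8 skeletal muscle markers from 1.80 to 1559.7 CPM, and that of 6 thymocyte markers from 1.38 to 2214 CPM. *Glis3*-Pax8Cre(ND) replicate 4, with the 2214 CPM of thymocyte markers, stood apart from all others.

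Fat genes are regulated by PPARγ, which pairs with RXR on nuclear receptor elements, and by C/EBP proteins. Only sequence close to the start was searched here, so sites farther away were not seen. RefSeq promoters of build GRCm38.p6, from 250 bases before to 50 after the start, were at hand for 7 of the 10 genes, and 3 are shown because *Ucp1*, *Plin1* and *Pparg* carry the main differences described here. Both strands were searched for AGGTCA (the half-site of nuclear receptors), TTGCNNAA (a C/EBP motif), TATAAA and TGACGTCA (the cAMP response element), and capitals mark the matches. The windows are chr8:83290098-83290397 on the plus strand for *Ucp1*, chr7:79732727-79733026 on the minus strand for *Plin1*, and chr6:115421816-115422115 on the plus strand for the most downstream of 3 *Pparg* starts. Each is written 5′ to 3′ along its gene.
Ucp1: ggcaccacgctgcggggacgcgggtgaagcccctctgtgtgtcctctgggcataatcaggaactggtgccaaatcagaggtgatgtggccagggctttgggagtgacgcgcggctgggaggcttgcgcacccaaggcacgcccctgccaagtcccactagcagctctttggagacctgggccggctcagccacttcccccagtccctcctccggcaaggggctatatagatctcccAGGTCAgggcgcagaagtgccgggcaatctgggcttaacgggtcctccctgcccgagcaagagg
Plin1: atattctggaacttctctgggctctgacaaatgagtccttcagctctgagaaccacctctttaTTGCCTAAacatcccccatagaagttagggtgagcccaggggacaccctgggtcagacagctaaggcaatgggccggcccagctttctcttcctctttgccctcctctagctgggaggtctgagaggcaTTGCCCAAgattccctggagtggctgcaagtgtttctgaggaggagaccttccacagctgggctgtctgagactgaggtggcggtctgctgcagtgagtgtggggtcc
Pparg: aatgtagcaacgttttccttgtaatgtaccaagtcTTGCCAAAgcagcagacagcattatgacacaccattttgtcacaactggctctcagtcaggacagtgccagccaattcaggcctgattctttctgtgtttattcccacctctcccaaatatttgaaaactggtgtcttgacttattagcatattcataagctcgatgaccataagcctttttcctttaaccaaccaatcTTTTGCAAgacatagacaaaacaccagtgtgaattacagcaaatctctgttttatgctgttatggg

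The *Ucp1* window held 1 half-site, 14 bases before the start. Both matches in the *Plin1* window, beginning 187 and 58 bases before the start, were to the C/EBP motif. The *Pparg* window shown also held 2 C/EBP matches, 1 on each strand, beginning 215 and 16 bases before the start. Of 32851 RefSeq promoters of this length, 16.3% held AGGTCA, 10.8% TTGCNNAA, 13.6% TATAAA and 1.79% TGACGTCA, and a match is a description of letters, not a binding site. The *Lep* window held 1 C/EBP match of 8 bases that reads the same on both strands, at 55 bases before the start, and 1 of the 2 *Cidec* windows held 1, at 198. The other *Pparg* starts held AGGTCA, at 28 and at 9 bases before the start, and the latter also a TATAAA match on the minus strand at 29. The *Adipoq* and *Ppargc1a* windows and the other *Cidec* window held none of the 4 motifs.

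Per kilobase of exon, *Fabp4* led the fat genes in all 4 groups, and the gene after it differed with diet. *Fabp4*, which encodes the fatty acid carrier of fat cells and is also expressed in macrophages and capillaries, was at 599.7 CPM per kilobase in WT(ND) and 302 in WT(LID). *Ucp1* came next in WT(ND) with 159 CPM per kilobase and, at 48.8 against 47.2 for *Adipoq*, in *Glis3*-Pax8Cre(ND), but in WT(LID) it stood at 8.01, below *Adipoq* (39.4), *Cidec* (36.6) and *Cidea* (18.9). In *Glis3*-Pax8Cre(LID) *Adipoq* (69.8) was likewise above *Ucp1* (21.3). *Lep*, the gene of leptin, was among the lowest in each group, at 0.436 to 1.10 CPM per kilobase. *Elovl3*, which encodes a fatty acid elongase of brown fat, was near it at 0.903 to 3.76.

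**Figure D1:**
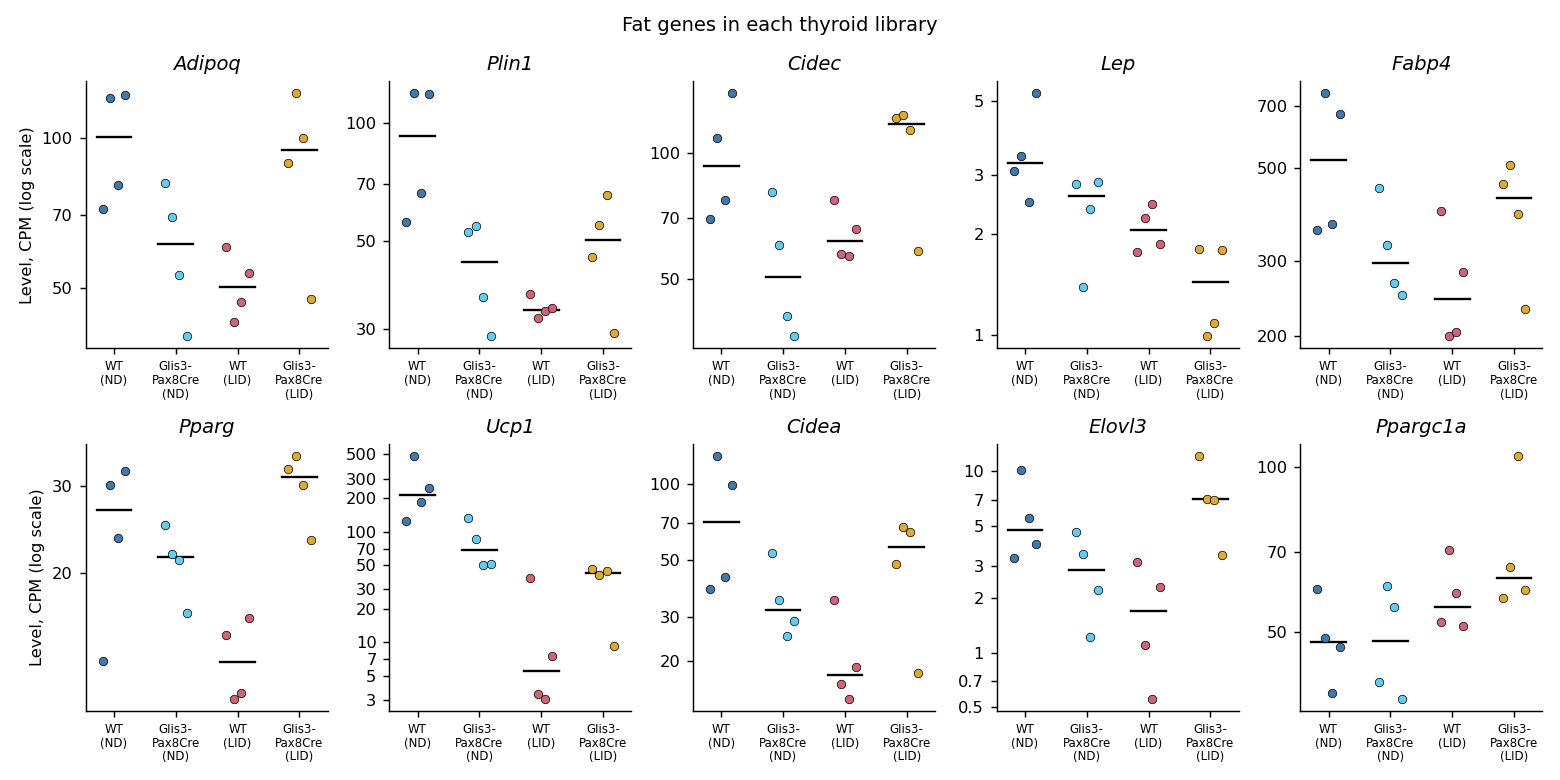
Level of each of the 10 fat genes in each mouse, in CPM on a log axis, by group; points are mice in order of replicate number and bars are group medians. Ucp1 spans 3.07 to 483 CPM, whereas Ppargc1a stays between 37.7 and 105 CPM.

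*Adipoq* encodes adiponectin, a hormone made almost exclusively by fat cells. The WT(ND) replicates 1 to 4 had 71.9, 121, 80.6 and 123 CPM of *Adipoq*, and the *Glis3*-Pax8Cre(ND) replicates had 81.5, 69.3, 53.1 and 39.9 CPM. The WT(LID) replicates had 60.5, 42.6, 46.8 and 53.6 CPM, and those of *Glis3*-Pax8Cre(LID) 89.4, 123, 100.3 and 47.5 CPM. All 4 WT(LID) mice lay below all WT(ND) mice, and 3 of the 4 *Glis3*-Pax8Cre(LID) mice lay above all WT(LID) mice. The exception, *Glis3*-Pax8Cre(LID) replicate 4, had 256 CPM of summed thymocyte markers, against 4.59 to 5.61 CPM in the other mice of its group, and the part of this in its fat gene levels was not tested.

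*Plin1* encodes perilipin 1, the coat of the fat droplet that guards it from lipases. Its level was 55.9, 119, 66.5 and 119 CPM in the WT(ND) mice, and the *Glis3*-Pax8Cre(ND) mice had 52.7, 54.6, 36.1 and 28.7 CPM. WT(LID) mice had 36.8, 31.9, 33.2 and 33.8 CPM, and *Glis3*-Pax8Cre(LID) mice 45.5, 55.1, 65.4 and 29.3 CPM. The 4 WT(ND) mice were above the 4 mice of *Glis3*-Pax8Cre(ND) and of WT(LID), without overlap. *Cidec* encodes a protein of droplet contacts through which small droplets merge into large ones. For *Cidec*, WT(ND) mice had 69.7, 108, 77.4 and 138 CPM and *Glis3*-Pax8Cre(ND) mice 80.7, 60.2, 41.0 and 36.6 CPM, while WT(LID) mice had 77.1, 57.4, 56.7 and 65.7 CPM and *Glis3*-Pax8Cre(LID) mice 121, 123, 113 and 58.5 CPM. Only for *Cidec* among these 3 genes did WT(LID) overlap with WT(ND), through the 77.1 CPM of WT(LID) replicate 1.

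*Ucp1* varied most of the 10 genes. WT(ND) mice had 123, 483, 185 and 247 CPM of *Ucp1*, and *Glis3*-Pax8Cre(ND) mice 134, 85.2, 50.04 and 50.5 CPM. After LID, WT mice had 38.4, 3.37, 3.07 and 7.56 CPM and *Glis3*-Pax8Cre mice 45.7, 40.5, 43.8 and 9.28 CPM. The ratio of the highest to the lowest mouse was 157, against 3.09 for *Adipoq*, 9.03 for *Cidea* and 21.9 for *Elovl3*. In both genotypes each LID mouse was below each ND mouse.

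*Cidea* encodes a droplet protein of brown and beige fat cells that is related to that of *Cidec*. WT(ND) mice had 38.4, 129, 42.9 and 98.7 CPM of it, *Glis3*-Pax8Cre(ND) mice 53.2, 34.9, 25.3 and 28.8 CPM, WT(LID) mice 34.9, 16.3, 14.2 and 19.1 CPM, and *Glis3*-Pax8Cre(LID) mice 48.3, 67.4, 64.3 and 18.1 CPM. Of *Elovl3*, WT(ND) mice had 3.35, 10.2, 5.55 and 3.97 CPM, *Glis3*-Pax8Cre(ND) mice 4.64, 3.49, 1.23 and 2.23 CPM, WT(LID) mice 3.18, 1.10, 0.557 and 2.29 CPM, and *Glis3*-Pax8Cre(LID) mice 12.2, 7.08, 6.98 and 3.45 CPM. For *Elovl3*, each *Glis3*-Pax8Cre(LID) mouse was above each WT(LID) mouse. In mm10 the span of *Cidea* overlaps that of *B430212C06Rik*, and the span of *Elovl3* that of *Pitx3*. Strand was not used in counting. Whether the exons of these genes overlap, and how this bears on their counts, was not checked.

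*Pparg* had 13.3, 30.1, 23.6 and 32.2 CPM in the WT(ND) mice, and 25.0, 21.8, 21.2 and 16.6 CPM in those of *Glis3*-Pax8Cre(ND). WT(LID) mice had 15.0, 11.1, 11.5 and 16.3 CPM of *Pparg*, and *Glis3*-Pax8Cre(LID) mice 32.4, 34.5, 30.2 and 23.4 CPM. All mice of *Glis3*-Pax8Cre(LID) were above all of WT(LID), replicate 4 included. *Ppargc1a*, which encodes the coactivator PGC-1α of mitochondrial genes and is active in many tissues, was at 38.7 to 59.9 CPM in WT(ND), 37.7 to 60.7 CPM in *Glis3*-Pax8Cre(ND), 51.2 to 70.5 CPM in WT(LID) and 57.6 to 105 CPM in *Glis3*-Pax8Cre(LID), and none of the 4 comparisons separated its groups. *Fabp4* ranged from 356 to 752 CPM in WT(ND), 249 to 448 CPM in *Glis3*-Pax8Cre(ND), 199 to 395 CPM in WT(LID) and 232 to 508 CPM in *Glis3*-Pax8Cre(LID). *Lep* ranged from 2.5 to 5.28 CPM in WT(ND), 1.39 to 2.87 CPM in *Glis3*-Pax8Cre(ND), 1.77 to 2.46 CPM in WT(LID) and 0.992 to 1.81 CPM in *Glis3*-Pax8Cre(LID), where it was lowest.

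In WT thyroids, 6 days of LID went with lower levels of nearly all fat genes. Of the 10 genes, 8 fell and 0 rose at an adjusted p under 0.05 (edgeR's quasi-likelihood test, Benjamini-Hochberg adjusted over all genes). At an unadjusted p under 0.05 the counts were 9 and 0, and with DESeq2 8 and 0. Among all 16630 genes tested, 20.8% were called lower and 20.9% higher in this comparison. The median log2 fold change of the 10 genes was -0.98, against -0.03 over all genes. *Ucp1* fell most, from 259.6 ± 157 to 13.1 ± 17.0 CPM (log2 fold change -4.30, standard error 0.88, adjusted p = 0.00168), a 19.7-fold lower level. The log2 fold change was -1.87 for *Cidea* (standard error 0.48), -1.69 for *Elovl3* (0.56) and -1.41 for *Plin1* (0.29). Smaller decreases were those of *Fabp4* (-0.99, standard error 0.31), *Adipoq* (-0.96, 0.28), *Pparg* (-0.88, 0.23) and *Lep* (-0.78, 0.28). The adjusted p of these 7 genes was between 0.00128 for *Plin1* and 0.0344 for *Lep* in the same edgeR test. Neither *Cidec* (-0.62, standard error 0.29, adjusted p = 0.0980) nor *Ppargc1a* (0.26, 0.20, adjusted p = 0.329) passed the edgeR threshold. For 6 of the genes, *Adipoq*, *Plin1*, *Lep*, *Ucp1*, *Cidea* and *Elovl3*, the 4 WT(LID) mice were all below the 4 WT(ND) mice, as were 23.3% of all genes tested. Without WT(ND) replicate 2 or WT(LID) replicate 2 the count of 8 became 5, while *Ucp1*, *Cidea*, *Plin1*, *Adipoq* and *Pparg* kept their calls without any 1 mouse. In bulk RNA, a smaller share of fat cells in a sample and less of these transcripts per fat cell cannot be told apart. The study reports that thyroid weight rose with LID in both genotypes, and more so in *Glis3*-Pax8Cre mice. The part of gland growth in these CPM values was not tested.

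**Figure D2:**
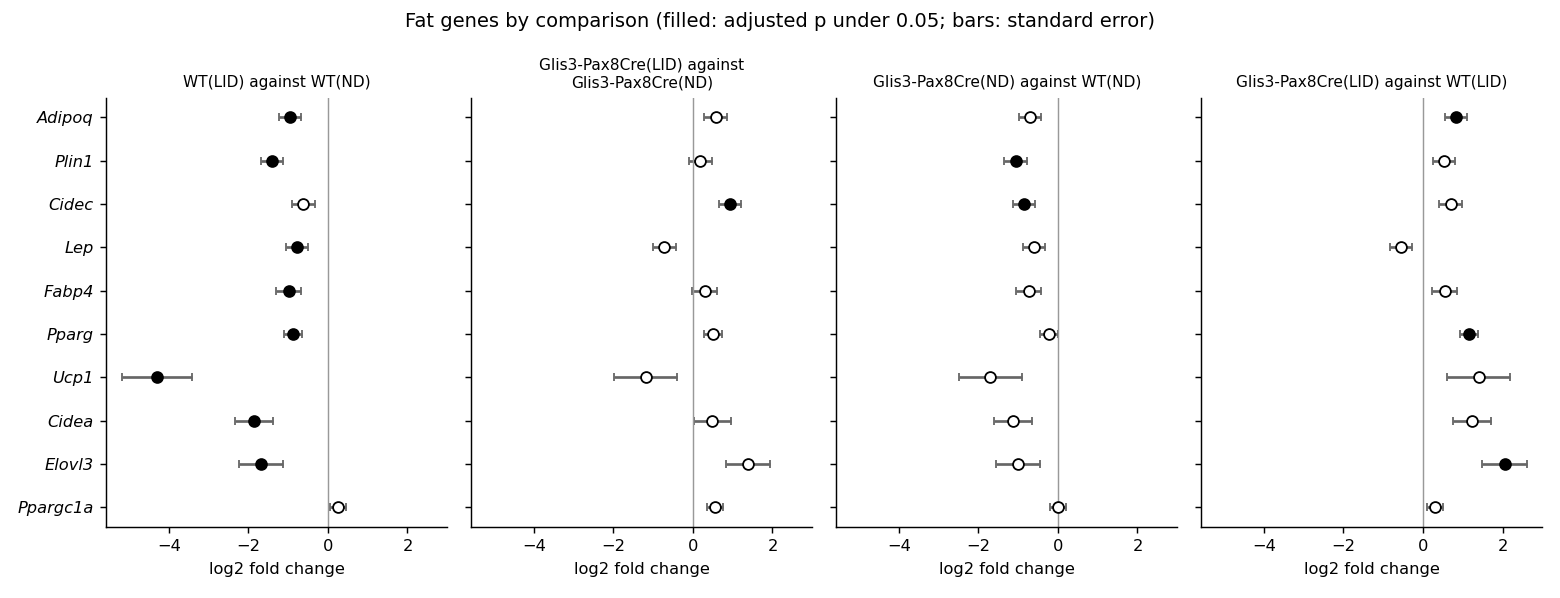
log2 fold change of each fat gene in the 4 comparisons, with bars for the standard error; filled points passed an adjusted p of 0.05 in edgeR's quasi-likelihood test. In WT(LID) against WT(ND), 8 of 10 points are filled and below 0, while in Glis3-Pax8Cre(LID) against WT(LID) 3 are filled and above 0.

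In *Glis3*-Pax8Cre mice, LID did not go with such a fall. Against *Glis3*-Pax8Cre(ND), only *Cidec* was called, and it rose (0.93 in log2, standard error 0.29, adjusted p = 0.0287, edgeR), while 13.1% of all genes tested were called higher and 12.3% lower. DESeq2 called 3 genes higher and 0 lower, and at an unadjusted p under 0.05 4 were higher and 1 lower. The edgeR call of *Cidec* was lost (adjusted p = 0.0663 to 0.0727) without *Glis3*-Pax8Cre(ND) replicate 3 or 4, the latter being the mouse with the highest thymocyte markers, or *Glis3*-Pax8Cre(LID) replicate 1, 2 or 3. *Ucp1* was lower in all 4 LID mice than in any ND mouse, but its log2 fold change of -1.19 had a standard error of 0.78 (adjusted p = 0.285, edgeR). *Adipoq* (0.57), *Pparg* (0.51), *Elovl3* (1.38) and *Ppargc1a* (0.56) had positive values and *Lep* (-0.72) a negative one, none of which passed. In these 2 groups, deviations from the group mean over all genes were correlated at 0.21 to 0.65 between mice with the same replicate number. Between mice with unlike numbers they were correlated at -0.44 to 0.36, so the ranges overlapped. With a replicate block fitted to the 8 *Glis3*-Pax8Cre mice alone, a choice made after the data were seen, 7 of the 10 genes were called in the edgeR test, against 18.1% of all genes tested in that fit. *Cidec* (0.93), *Adipoq* (0.53), *Pparg* (0.50), *Elovl3* (1.36) and *Ppargc1a* (0.54) were then higher and *Ucp1* (-1.31) and *Lep* (-0.74) lower, with adjusted p from 0.00546 for *Cidec* to 0.0459 for *Lep*.

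The diet difference itself depended on genotype for 6 of the 10 genes. The genotype by diet interaction is the log2 fold change with LID in *Glis3*-Pax8Cre mice minus that in WT mice. It was positive for all 10 genes, with a median of 1.54 against -0.01 over all genes, and 4.43% of all genes tested were called with a positive interaction. Called by edgeR's quasi-likelihood test were *Elovl3* (3.07, standard error 0.79, adjusted p = 0.0203), *Cidea* (2.36, 0.67, 0.0353), *Plin1* (1.59, 0.40, 0.0186), *Cidec* (1.55, 0.41, 0.0223), *Adipoq* (1.53, 0.39, 0.0203) and *Pparg* (1.39, 0.32, 0.0113). *Ucp1* had the largest value, 3.11, with a standard error of 1.12 and an adjusted p of 0.0924 in edgeR. DESeq2 called it with the same 16 mice (3.10, adjusted p = 0.0440). WT(LID) replicate 1, at 38.4 CPM, was far above the other 3 mice of its group, and without it the *Ucp1* interaction was 4.58 (adjusted p = 0.00536, edgeR). *Fabp4* (1.29, adjusted p = 0.0754, edgeR) did not pass, and for *Lep* (0.06) and *Ppargc1a* (0.30) the value was below its standard error or near it. The call of *Cidea* was lost (adjusted p = 0.0573 to 0.0765, edgeR) without any one of 11 of the 16 mice, *Glis3*-Pax8Cre(ND) replicate 4 among them, and that of *Cidec* without WT(LID) replicate 2 or 3 (0.0523 and 0.0515).

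Between genotypes on ND, *Plin1* and *Cidec* were lower in *Glis3*-Pax8Cre thyroids. *Plin1* fell from 90.0 ± 33.5 to 43.0 ± 12.7 CPM (log2 fold change -1.07, standard error 0.29, adjusted p = 0.0181, edgeR) and *Cidec* from 98.4 ± 31.5 to 54.7 ± 20.2 CPM (-0.85, 0.29, adjusted p = 0.0498). None of the 10 was called higher by edgeR (0 also at an unadjusted p under 0.05 and with DESeq2), and 9.25% of all genes tested were called lower and 10.3% higher. *Cidec* lay at the threshold, and it lost the call without any one of 12 mice, among them *Glis3*-Pax8Cre(ND) replicate 4 (adjusted p = 0.120, edgeR). *Plin1* kept its call without that mouse (-0.91, adjusted p = 0.0478, edgeR). For *Plin1* the call was lost without WT(ND) replicate 2 or 4 or *Glis3*-Pax8Cre(ND) replicate 3, with an adjusted p of 0.0524 to 0.0641 in edgeR. *Adipoq* (-0.70, adjusted p = 0.0897, edgeR), *Cidea* (-1.13), *Fabp4* (-0.73), *Lep* (-0.61), *Elovl3* (-1.02) and *Ucp1* (-1.71) had values of the same sign, with standard errors of 0.28 to 0.79, and did not pass. *Pparg* (-0.23) and *Ppargc1a* (0.01) were close to 0 for their standard errors of 0.23 and 0.20. This comparison shares the WT(ND) mice with the diet comparison in WT, so the sets of values are not independent.

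Between genotypes on LID, *Pparg*, *Elovl3* and *Adipoq*, none of them called on ND, were higher in *Glis3*-Pax8Cre mice. *Pparg* rose from 13.5 ± 2.56 CPM in WT mice to 30.1 ± 4.83 CPM in *Glis3*-Pax8Cre mice (log2 difference 1.16 with a standard error of 0.23, adjusted p = 0.00133, edgeR). *Elovl3* rose from 1.78 ± 1.18 to 7.42 ± 3.60 CPM (2.05, 0.56, adjusted p = 0.0128) and *Adipoq* from 50.9 ± 7.83 to 90.2 ± 31.8 CPM (0.83, 0.28, adjusted p = 0.0361). These were 3 of 10 genes called higher with 0 lower (5 and 0 both at an unadjusted p under 0.05 and with DESeq2), where 14.9% of all genes tested were called higher and 15.4% lower. Only *Pparg* and *Elovl3* had no overlap between the mice of both groups, 2 of 10 where 17.7% of all genes tested had none with *Glis3*-Pax8Cre(LID) higher, so this share was near the background. *Cidea* (1.23, adjusted p = 0.0653), *Cidec* (0.69, 0.0820), *Ucp1* (1.41, 0.207), *Fabp4* (0.55, 0.207), *Plin1* (0.52, 0.184) and *Ppargc1a* (0.31, 0.286) had positive values that did not pass in edgeR, and *Lep* had -0.55 (0.155). *Pparg* and *Elovl3* kept their calls in all 16 fits that left out 1 mouse. *Adipoq* lost its call in 6 of them, those without WT(LID) replicate 2, 3 or 4 or *Glis3*-Pax8Cre(LID) replicate 1, 2 or 3 (adjusted p = 0.0618 to 0.117, edgeR). The count of 3 became 5 without WT(LID) replicate 1, with *Cidea* (1.58) and *Ucp1* (2.89) added, and 5 without *Glis3*-Pax8Cre(LID) replicate 4, with *Cidea* (1.51) and *Cidec* (0.89) added. With library size as the only scaling, the median over all genes moved to 0.16 and the count to 6.

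Inside groups, most of the fat genes varied together from mouse to mouse. For this the group mean was subtracted from the log2 CPM, and each gene was set against *Adipoq* over the 16 mice, 9 relations in all with an exact permutation test within groups and Benjamini-Hochberg adjustment. Pearson's r was 0.95 for *Cidec* (Spearman's rho 0.92), 0.92 for *Plin1* (0.89), 0.90 for *Fabp4* (0.89) and 0.90 for *Cidea* (0.89), with an adjusted exact p of 0.000163 to 0.00066 for r and 0.000769 to 0.00287 for rho. It was 0.79 for *Pparg* (rho 0.86) and 0.76 for *Ucp1* (rho 0.77), with an adjusted exact p of 0.000217 and 0.000315 for r and 0.000793 and 0.00134 for rho. *Elovl3* had 0.60 (adjusted exact p = 0.0231) with a rho of 0.52 that did not pass (0.0672). Without the 2 mice farthest from the median, replicates 4 of *Glis3*-Pax8Cre(ND) and *Glis3*-Pax8Cre(LID), r was 0.91 for *Cidec*, *Fabp4* and *Cidea*, 0.87 for *Plin1*, 0.79 for *Pparg*, 0.71 for *Ucp1* and 0.56 for *Elovl3*. Libraries share their dissection and depth across genes, and a varying share of fat tissue and joint regulation of the genes cannot be told apart by r.

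*Lep* and *Ppargc1a* stood outside this pattern. For *Lep*, r was -0.26 (rho -0.20, adjusted exact p = 0.491 for r and 0.621 for rho) and turned to 0.013 without the 2 mice. For *Ppargc1a*, r was 0.13 (rho 0.14, adjusted exact p = 0.713 and 0.669) and turned to -0.22. *Lep* rested on few reads, 45 to 2350 counts a library, but so did *Elovl3*, with 31 to 1765. The part of low counts in these correlations was not tested.

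**Figure D3:**
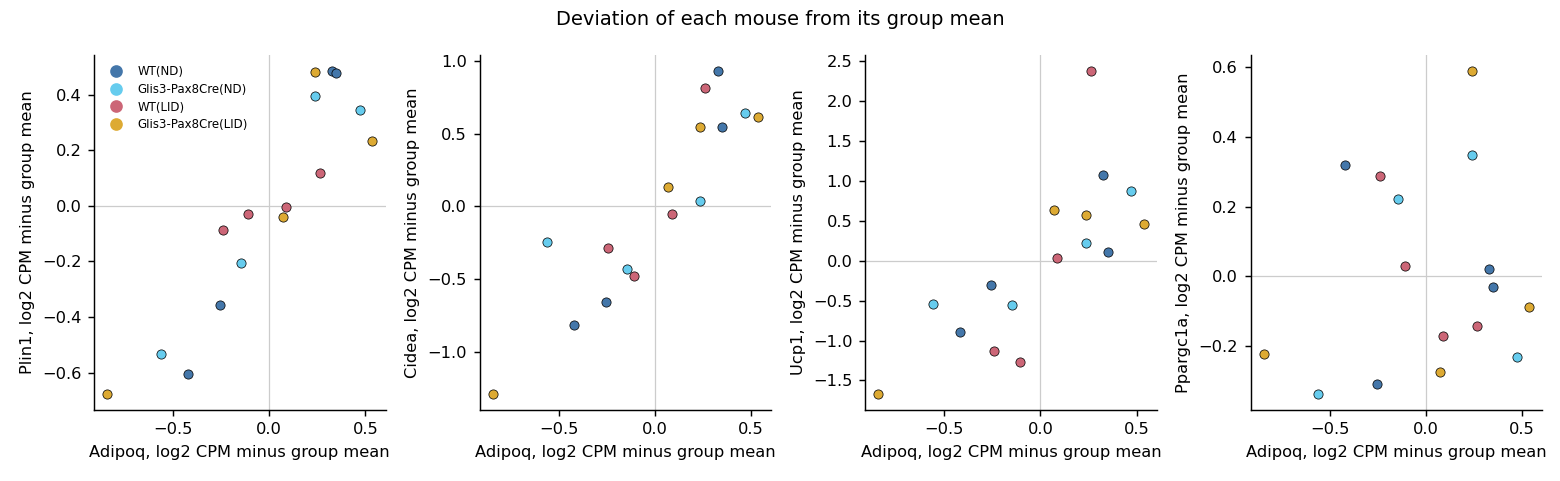
Deviation of Plin1, Cidea, Ucp1 and Ppargc1a from the group mean against that of Adipoq, in log2 CPM, 1 point per mouse, coloured by group. Pearson's r is 0.92, 0.90, 0.76 and 0.13 in order of the panels.

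By the same measure, the 10 genes outside the set nearest to the mean of *Adipoq*, *Plin1* and *Cidec*, among 13996 genes with a mean of at least 1 CPM, were *Lipe* (r = 0.97), *Amy1* (0.96), *Crat* (0.96), *Sh2b2* (0.95), *Slc36a2* (0.95), *Cdo1* (0.94), *Cav1* (0.94), *Cat* (0.94), *Zfp423* (0.94) and *Acsl1* (0.94). Nearest to *Ucp1* were *2010003K11Rik* (0.93), *Medag* (0.93), *Gys2* (0.92), *Plin5* (0.88), *Zbtb7c* (0.88), *Cox8b* (0.86), *Ucp3* (0.86), *Otop1* (0.85), *Folr2* (0.85) and *Negr1* (0.85). These are descriptions over 16 mice that were ranked by r, with no test. No gene was common to both sets of 10, but this cut does not separate the patterns. *Otop1* and *Cox8b* had a higher r with the mean of *Adipoq*, *Plin1* and *Cidec* (0.90 and 0.89) than with *Ucp1*. From a fixed list, 18 brown and beige adipocyte genes had a median r of 0.72 with that mean and 0.62 with *Ucp1*.

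*Ucp1* differed between diets also in relation to *Adipoq* in the same library. The ratio of *Ucp1* to *Adipoq* counts was 1.72, 4.0, 2.30 and 2.01 in WT(ND) and 1.64, 1.23, 0.942 and 1.26 in *Glis3*-Pax8Cre(ND). It was 0.635, 0.0791, 0.0657 and 0.141 in WT(LID) and 0.511, 0.328, 0.437 and 0.195 in *Glis3*-Pax8Cre(LID). Every LID mouse was below every ND mouse, in both genotypes, and the ND groups themselves did not overlap. *Cidea*, in contrast, had 0.532 to 1.07 counts per count of *Adipoq* in WT(ND), 0.475 to 0.721 in *Glis3*-Pax8Cre(ND), 0.304 to 0.577 in WT(LID) and 0.380 to 0.641 in *Glis3*-Pax8Cre(LID), so that the diets overlapped. The ratio of *Ucp1* to *Cidea*, both genes of brown fat, was 2.5 to 4.32 in WT(ND), 1.75 to 2.51 in *Glis3*-Pax8Cre(ND), 0.207 to 1.10 in WT(LID) and 0.514 to 0.946 in *Glis3*-Pax8Cre(LID), again without overlap between the diets in either genotype. *Fabp4* kept to 3.86 to 6.53 counts per count of *Adipoq* over all 16 mice.

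**Figure D4:**
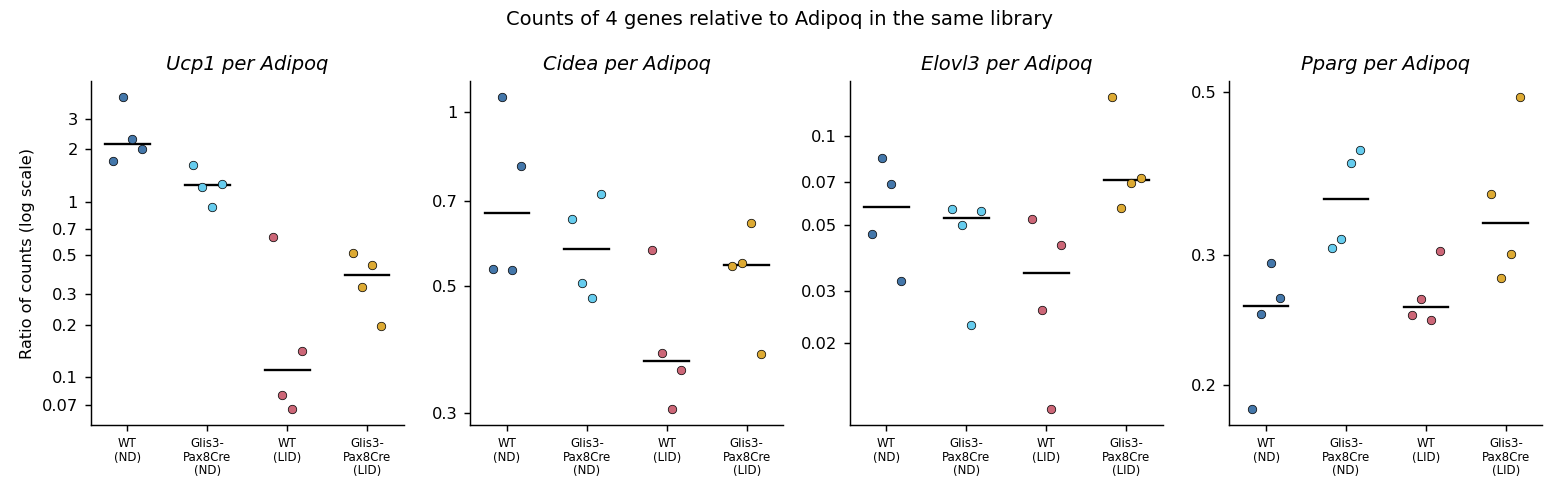
Counts of Ucp1, Cidea, Elovl3 and Pparg per count of Adipoq in each library, on log axes; points are mice in order of replicate number and bars are group medians. For Ucp1 the ND mice lie between 0.942 and 4.0 and the LID mice between 0.0657 and 0.635.

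The same question was put to the fit with the mean log2 level of *Adipoq*, *Plin1* and *Cidec* in each mouse as a covariate. *Ucp1* was then lower with LID in WT mice (log2 fold change -2.54, standard error 0.69, adjusted p = 0.0153) and in *Glis3*-Pax8Cre mice (-2.44, 0.66, adjusted p = 0.0221), both in edgeR's quasi-likelihood test over all genes. Between genotypes on LID, *Pparg* remained higher in the *Glis3*-Pax8Cre mice (0.74, standard error 0.16, adjusted p = 0.0037, edgeR). *Elovl3* had 1.29 (0.50) in that comparison and no longer passed (adjusted p = 0.0731, edgeR). The values of *Fabp4* lay between -0.30 and 0.20 in the 4 comparisons and the interaction, and those of *Cidea* between -0.50 and 0.36, with no call. None of the 7 genes outside the covariate had an interaction past the threshold in this fit, in which *Ucp1* had 0.11 (standard error 1.09) and *Pparg* 0.34 (0.29). The covariate was itself made of 3 of the 10 genes and differed between groups.

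Counts of *Pparg* per count of *Adipoq* were 0.185 to 0.292 in WT(ND), 0.307 to 0.417 in *Glis3*-Pax8Cre(ND), 0.245 to 0.304 in WT(LID) and 0.279 to 0.492 in *Glis3*-Pax8Cre(LID). On ND the genotypes did not overlap in this ratio, and on LID they did. *Elovl3* had 0.0573 to 0.136 counts per count of *Adipoq* in *Glis3*-Pax8Cre(LID) and 0.0119 to 0.0526 in WT(LID), without overlap. *Cidec* had 1.21 to 1.35 counts per count of *Adipoq* in WT(LID), above the 0.896 to 1.13 of WT(ND), while *Plin1* had 0.609 to 0.749 in WT(LID), below the 0.777 to 0.986 of WT(ND). The droplet coat gene and the droplet fusion gene thus moved apart relative to *Adipoq* with LID in WT mice. In *Glis3*-Pax8Cre mice the medians moved in the same directions. *Cidec* had 0.772 to 0.991 counts per count of *Adipoq* on ND and 0.994 to 1.35 on LID, without overlap. *Plin1* had 0.647 to 0.788 on ND and 0.446 to 0.652 on LID in these mice, with medians of 0.699 and 0.563. For *Plin1* the diets overlapped.

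Other genes of fat cells were read from lists of 25 white and general adipocyte genes, 22 brown and beige adipocyte genes, of which 20 were tested, and 20 partners and regulators of PPARγ and PGC-1. These lists were chosen with earlier results of these data known, so their counts are descriptions beside the shares of all genes. In WT mice with LID, 18 of the 25 white and general genes fell and 0 rose by edgeR (19 and 0 at an unadjusted p under 0.05 and with DESeq2), with a median log2 fold change of -1.02, as did 12 of the 20 brown and beige genes with 1 rising, against 20.8% of all genes lower and 20.9% higher. *Thrsp*, a gene of fatty acid synthesis that responds to thyroid hormone, fell from 294 ± 131 to 49.0 ± 14.9 CPM (-2.59, standard error 0.34, adjusted p = 3.59e-05, edgeR). *Slc2a4*, the insulin-responsive glucose transporter, had a log2 fold change of -2.04, and the desaturase gene *Scd1* and the glycerol channel gene *Aqp7* had -1.88 each. Of the brown and beige genes, *Otop1* (-2.28), the mitochondrial genes *Cox8b* (-2.14) and *Cox7a1* (-1.70), and *Ppara* (-1.61), a nuclear receptor of fatty acid oxidation, fell. With edgeR the adjusted p of these 7 genes was 0.000193 (*Scd1*) to 0.00313 (*Cox7a1*). Of the 20 partners and regulators, 9 rose and 3 fell, the latter no larger a share than among all genes, among them *Rxrg* (-1.72) and *Esrrg* (-1.66), both nuclear receptors, and *Cebpd* (1.502) and *Klf15* (0.79), both transcription factors of fat cell formation.

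In *Glis3*-Pax8Cre(LID) against WT(LID), 7 of the 25 white and general genes rose and 1 fell, and 3 of the 20 brown and beige genes rose and 1 fell, where 14.9% of all genes were higher and 15.4% lower. The share of brown and beige genes that rose was thus near the background. *Lpl*, the lipoprotein lipase, rose from 111 ± 15.7 to 264 ± 104 CPM (1.26, standard error 0.35, adjusted p = 0.0144, edgeR), *Pnpla2*, the first lipase of the droplet, from 152 ± 22.5 to 296 ± 55.7 CPM (0.96, 0.20, 0.00176), and the fatty acid transporter gene *Cd36* from 106 ± 19.4 to 236 ± 59.2 CPM (1.15, 0.24, 0.00224). The largest difference among the genes of both lists was in *Ffar4*, a receptor for long-chain fatty acids, from 1.25 ± 0.17 to 8.61 ± 1.42 CPM (2.79, standard error 0.28, adjusted p = 3.46e-06, edgeR). The 4 *Glis3*-Pax8Cre(LID) mice had 6.69 to 9.97 CPM of *Ffar4* and all other mice 0.821 to 3.26 CPM. Its r with the mean of *Adipoq*, *Plin1* and *Cidec* was 0.58. On ND *Ffar4* was instead lower in *Glis3*-Pax8Cre mice (-1.15, adjusted p = 0.00892, edgeR), and its interaction of 3.93 (adjusted p = 1.31e-05, edgeR) was above those of the 10 fat genes. *Srebf1*, a regulator of lipid synthesis that many cell types express, rose from 284 ± 8.90 to 638 ± 90.1 CPM (1.17, 0.09, adjusted p = 2.73e-07, edgeR). Its r with the mean of *Adipoq*, *Plin1* and *Cidec* was -0.43.

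On ND, 13 of the 25 white and general genes were lower in *Glis3*-Pax8Cre thyroids and 0 higher by edgeR (19 and 1 at an unadjusted p under 0.05, 17 and 0 with DESeq2), and so were 10 of the 20 brown and beige genes, with 1 higher, against 9.25% of all genes lower. *Aqp7* (-1.32), *Scd1* (-1.22), *Pck1* (-1.22), *Otop1* (-1.35) and *Cox8b* (-1.34) were among those that fell. With LID in *Glis3*-Pax8Cre mice, 4 of the 25 white and general genes rose and 2 fell, with *Lpl* (1.12) among the former and *Thrsp* (-1.11) among the latter, and 4 of the 20 brown and beige genes rose and 1 fell. Against 13.1% of all genes higher and 12.3% lower, the white and general genes were near the background. The interaction was called positive in 16 of the 25 white and general genes and 6 of the 20 brown and beige genes, against 4.43% of all genes, and negative in 0 of either list by edgeR (2 white and general genes at an unadjusted p under 0.05 and 1 with DESeq2, 0 brown and beige genes by either). The white and general genes named first by size were *Aqp7* (2.39), *Lpl* (2.13), *Pck1* (2.13) and *Gpd1* (1.94), and after *Ffar4* the brown and beige genes were *Cox8b* (2.18), *Otop1* (2.08) and *Ppara* (1.71). The comparisons share their groups of mice, and the lists were read as counts with no test of a list.

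Tissue carried along in dissection was followed with the summed CPM of fixed markers. The white fat sum of *Adipoq*, *Plin1*, *Cidec* and *Lep* was 201 to 385 CPM in WT(ND), 108 to 218 in *Glis3*-Pax8Cre(ND), 134 to 176 in WT(LID) and 137 to 302 in *Glis3*-Pax8Cre(LID). The brown fat sum of *Ucp1*, *Cidea* and *Elovl3* was 165 to 622, 76.5 to 192, 17.9 to 76.5 and 30.8 to 115 CPM in the same order. The brown and white sums had medians of 291 and 289 CPM in WT(ND), and of 24.8 and 147 CPM in WT(LID). Their names are labels, and the sums are not separate amounts of white and brown fat. *Lep* added only 0.992 to 5.28 CPM to the white sum. Inside groups, *Adipoq*, *Plin1* and *Cidec* had r of 0.87 to 0.90 with *Cidea* and of -0.26 to -0.05 with *Lep*.

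Parathyroid markers fell with LID as the fat genes of WT mice did, but they did so in both genotypes. Their sum was 6886 to 12570.4 CPM in WT(ND), 5622 to 8780.2 in *Glis3*-Pax8Cre(ND), 1674 to 3734 in WT(LID) and 366 to 3501 in *Glis3*-Pax8Cre(LID). By edgeR all 4 of *Pth*, *Gcm2*, *Casr* and *Chga* were called lower with LID in WT mice (20.8% of all genes tested) and in *Glis3*-Pax8Cre mice (12.3%). The medians of these 4 log2 fold changes were -1.80 and -1.65. Inside groups, r of the 4 markers with the mean of *Adipoq*, *Plin1* and *Cidec* was 0.44 to 0.58. Their part in the fat gene differences was not tested.

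Muscle and thymus markers followed other mice. The 8 skeletal muscle markers were below 3 CPM in sum in at least 1 mouse of each group and reached 476, 1559.7, 1206 and 1001 CPM in the others. Of them, 0 of 8 were called in any comparison by edgeR, at an unadjusted p under 0.05 or with DESeq2. Their r with the mean of *Adipoq*, *Plin1* and *Cidec* was -0.11 to 0.03. The 6 thymocyte markers were high in *Glis3*-Pax8Cre(ND) replicate 4 (2214 CPM), *Glis3*-Pax8Cre(LID) replicate 4 (256), WT(LID) replicate 3 (177) and WT(ND) replicate 1 (121), and r of the 5 that could be ranked was -0.72 to -0.58. The first of these mice had the lowest white fat sum of the 16. *Ptcra* was at 0 counts in 5 mice.

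Endothelial markers took another direction. All 6 were called higher with LID in WT mice by edgeR, where 20.9% of all genes tested were. Their sum was 1267 to 1437 CPM in WT(LID) against 475 to 852 CPM in all other mice. Fibroblast and preadipocyte markers were between 244 and 581 CPM, with r to the mean of *Adipoq*, *Plin1* and *Cidec* of -0.05 to 0.78. Macrophage markers were between 147 and 286 CPM. By edgeR, 5 of 5 were called higher in *Glis3*-Pax8Cre(ND) than in WT(ND), where 10.3% of all genes tested were. C-cell markers summed to 1185 to 4014 CPM, most of it *Calca* (1024 to 3884 CPM). *Calca* was lower in WT(LID) than in WT(ND) (log2 fold change -1.14) and lower in *Glis3*-Pax8Cre(ND) than in WT(ND) (-0.88). *Ret* was higher in both comparisons (0.76 and 0.72), and edgeR called all these differences. Cartilage markers summed to 0.664 to 13.0 CPM, and *Matn1* was at 0 counts in 11 mice. The sum of sebaceous gland and skin markers was small, but it differed between groups. It was 3.41 to 6.32 CPM in WT(ND), 2.61 to 8.99 in *Glis3*-Pax8Cre(ND), 1.64 to 1.89 in WT(LID) and 2.36 to 4.13 in *Glis3*-Pax8Cre(LID). With LID in WT mice, edgeR called 3 of the 4 tested lower and 0 higher, where 20.8% of all genes were lower. WT(LID) was lowest for *Elovl3* too, and the part of such tissue in *Elovl3* was not tested.

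**Figure D5:**
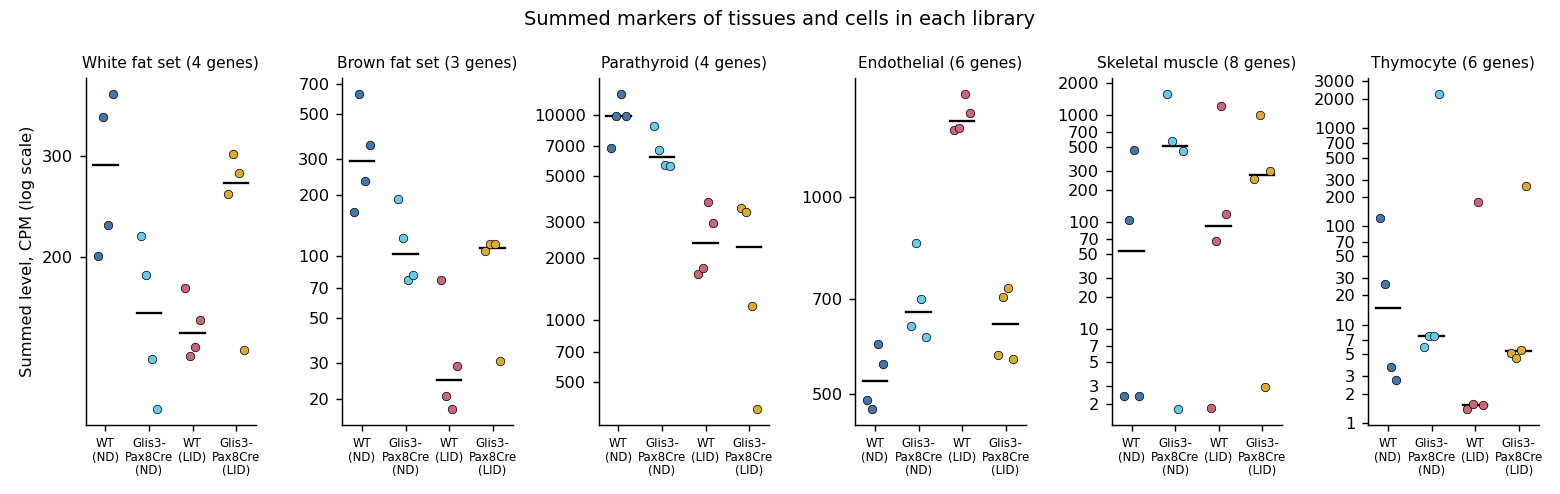
Summed CPM of the white and brown fat sets and of parathyroid, endothelial, skeletal muscle and thymocyte markers in each library, on log axes; points are mice in order of replicate number and bars are group medians. Fat and parathyroid sums are lower in WT(LID) than in WT(ND), muscle sums differ from mouse to mouse in every group, and 1 mouse of each group has 121 CPM or more of thymocyte markers.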

How the data were processed

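RNA-Seq of thyroid glands of 16 mice was analysed. Per the methods of the study and the submitters' processing notes, pairs of reads below an average quality of 20 were dropped, STAR 2.5 placed the others on mm10, and featureCounts 1.5.0-p1 summed them over RefSeq genes without regard to strand. The values the authors deposited are these raw counts. Reads came from a NextSeq or a NovaSeq, which is not given per library. Counts were fitted in R 4.3.3 with edgeR 4.0.16 (filterByExpr, TMM, robust quasi-likelihood) with 1 mean per group over all 16 mice, and adjusted p-values are Benjamini-Hochberg over all 16630 genes. The threshold for a call was 0.05. No set test was run. Replicates are taken as separate mice, and p-values measure the spread between them.

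The 10 genes, the gene lists and the marker lists were chosen with earlier results of these data known. All 10 genes are named. From each list, genes were named among the up to 4 called genes with the largest log2 fold change and a mean of at least 1 CPM, and by likeness the 10 genes with the highest r. Exon lengths are from GENCODE, and 2 list genes were matched by their older symbols. The fit was tested on simulated counts. The 24 pairs of libraries within groups differed by more than counting noise (chi-squared per degree of freedom at least 34.5).

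Same-numbered mice are different animals. Their deviations from the group means were correlated at 0.21 to 0.65 in the 4 pairs of the *Glis3*-Pax8Cre groups. In the other comparisons r was between -0.52 and 0.14. Mice with unlike numbers reached 0.36 in the former and 0.49 in the latter. The main fit paired no mice, and pairing by number was used only in the fits with the replicate block. Alternatives were DESeq2 1.42.0, RLE, library size alone, *Tg* left out, other filters, the 8 mice of a comparison, the replicate block, the covariate, a stricter threshold and each mouse left out.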

Additional observations from a re-analysis of the deposited data

Results flagged for a closer look

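In 40 groups of 4 mice (10 genes in 4 groups), 4 groups had a mouse far from the other 3, where chance flags about 1 in 20 groups. *Glis3*-Pax8Cre(LID) replicate 4 was far below its group for *Cidec* (58.5 CPM, with the others at 113 to 123) and for *Ucp1* (9.28 CPM, with the others at 40.5 to 45.7). It was also the mouse of its group with the highest sum of thymocyte markers (256 CPM) and the lowest sum of parathyroid markers (366 CPM), whose part in this was not tested. WT(LID) replicate 1 was far above its group for *Ucp1* (38.4 CPM, with the others at 3.07 to 7.56). *Glis3*-Pax8Cre(LID) replicate 3 was far above its group for *Ppargc1a* (105 CPM, with the others at 57.6 to 65.6).

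The difference with diet was not alike in the 2 genotypes for 6 genes by the interaction in edgeR's quasi-likelihood test, on the log2 scale 1.53 for *Adipoq*, 2.36 for *Cidea*, 1.55 for *Cidec*, 3.07 for *Elovl3*, 1.59 for *Plin1* and 1.39 for *Pparg*. For each of them WT mice had a negative and *Glis3*-Pax8Cre mice a positive log2 fold change with LID.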

How the results depend on the processing

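Of the 20 calls of single genes, 269 of 320 values without 1 mouse kept the call, 51 lost it and 0 changed sign. Under the other settings without the covariate, 142 of 155 kept it and 13 lost it. The numbers of genes called moved as follows. *Glis3*-Pax8Cre(LID) against WT(LID), 3 as fitted, gave 5 with DESeq2, 6 with library size alone, 1 at an adjusted p under 0.01 with a fold over 2, and 2 to 5 without 1 mouse. *Glis3*-Pax8Cre(ND) against WT(ND), 2 as fitted, gave 1 with RLE, library size alone, *Tg* left out or no filter, 0 with only its 8 mice or the stricter threshold, and 0 to 3 without 1 mouse. WT(LID) against WT(ND), 8 as fitted, gave 3 at the stricter threshold and 5 to 8 without 1 mouse. *Glis3*-Pax8Cre(LID) against *Glis3*-Pax8Cre(ND), 1 as fitted, gave 3 with DESeq2, 0 with only its 8 mice or the stricter threshold, and 0 to 3 without 1 mouse. The interaction, 6 as fitted, gave 0 at the stricter threshold and 4 to 8 without 1 mouse.

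With the replicate block over all 16 mice, the counts were 2, 1, 8, 1 and 5 in the same order, and *Adipoq* in *Glis3*-Pax8Cre(LID) against WT(LID) (adjusted p = 0.0597, edgeR), *Cidec* on ND (0.0554) and the *Cidea* interaction (0.0583) lost their calls. Values near 0 turned sign under the block, the *Lep* interaction (-0.0083) and *Ppargc1a* on ND (-0.035). The block in the 8 *Glis3*-Pax8Cre mice alone, paired by number and chosen after seeing the data, gave 7 genes.

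With the fat level as covariate, *Fabp4* turned to -0.10 and 0.20 between genotypes on LID and ND, 0.013 and -0.28 with LID in WT and *Glis3*-Pax8Cre mice, and -0.30 in the interaction. On ND between genotypes, *Pparg* (0.40), *Ucp1* (0.089), *Cidea* (0.36) and *Elovl3* (0.020) turned positive, and *Cidea* turned to -0.50 with LID in *Glis3*-Pax8Cre mice and -0.18 in the interaction. Without 1 mouse, the *Lep* interaction turned sign in 5 fits (lowest -0.21, highest 0.20) and *Ppargc1a* on ND in 4 (-0.12 to 0.13). The correlations of *Lep* (0.013) and *Ppargc1a* (-0.22) with *Adipoq* turned sign without 2 mice. Why these values moved was not tested.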
